A study of Mus musculus with 8 samples.

Results

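The amino acid and neurotransmitter transporters examined here were the genes of the mouse solute carrier families SLC1, SLC3, SLC6, SLC7, SLC36, SLC38 and SLC43, chosen by symbol alone. Of the 27179 genes in the count table, 66 carried such a symbol, 63 of them transporters and 3 transcripts named for lying opposite a transporter (Slc7a6os, Slc36a1os and Slc6a19os). A further annotated transcript of this kind, Slc36a3os, was not analysed here.

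RNA sequencing was performed on whole primary mammary tumours taken on day 14 by the labels (the study's methods give an earlier day), with 4 tumours in each of 2 groups. Both groups were 4T1.13 cells, a highly metastatic line of the BALB/c mouse mammary carcinoma 4T1, grown in the mammary fat pad of young adult BALB/c females. Each line carried a lentiviral pEZX-AM03 vector with mCherry and hygromycin resistance, in which an H1 promoter drove either a scrambled sequence (VC, vector control) or an RNA that sequesters mature miR-21 (miR-21-KD). Each line was a pool of clones and the host cells of the tumour kept their own miR-21, so that the 2 groups compared 1 pool with another. The design asks what reduced miR-21 activity in the tumour cells goes with in the whole tumour. Totals were 12134849 to 13592695 counts in VC against 12550898 to 12783800 in miR-21-KD tumours, and a count of 0 allowed a level of up to 0.221 to 0.245 CPM (counts per 1000000 of the scaled library). That limit is 3 counts and covers counting error only.

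These proteins move amino acids and amine transmitters across the plasma membrane and the membranes of lysosomes and vesicles. The SLC7 light chains need a partner from SLC3, the heavy chain, to reach the cell surface, where most exchange 1 amino acid for another. The cationic carriers of SLC7 act alone and bring in arginine, the substrate of nitric oxide synthase among other enzymes. SLC1 holds the glutamate carriers and 2 exchangers of small neutral amino acids, SLC38 the sodium-coupled carriers of glutamine and alanine, and SLC36 the proton-coupled carriers. SLC43 members work by facilitated diffusion. The SLC6 family clears amine transmitters, GABA and glycine from the synapse and also carries taurine and creatine. In tumours, such carriers supply glutamine, leucine, cystine and arginine to both the tumour cells and the immune cells around them.

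The agent under test, the mature mouse miRNA mmu-miR-21a-5p, is shown in full because its sequestration is the only designed difference between the groups. It lies at chr11:86584120-86584141 on the minus strand (RefSeq, GRCm38.p6), and the capitals mark its seed, bases 2 to 8.
mmu-miR-21a-5p: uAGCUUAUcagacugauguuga

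After a filter on low counts, 34 of the 63 transporters were tested. The CPM of 14 were higher and of 3 lower in miR-21-KD than in VC tumours at an adjusted p under 0.05 (robust quasi-likelihood test of edgeR, Benjamini-Hochberg over all 14382 tested genes), and 17 did not pass. The share past the threshold was 17 of 34 tested transporters, beside 39.1% of all tested genes. By direction, 41.2% were higher and 8.82% lower, beside 19.6% and 19.5% of all tested genes. Their median log2 fold change was 0.34, beside -0.01 over all tested genes. The values of the 4 miR-21-KD and the 4 VC tumours did not overlap for 15 transporters (44.1%, beside 35.2% of all tested genes), with the miR-21-KD tumours above in 11 and below in 4. The tested opposite-strand transcript, Slc7a6os, was also higher, which brings the members past the threshold to 18 (15 higher, 3 lower). The count of members past the threshold fell to 11 without VC replicate 2 (Slc7a4 among them, which was not one of the 18), to 9 without VC replicate 3 and to 10 without miR-21-KD replicate 4, and 4 passed a test against a fold change of 1.5. The calls over all tested genes fell alike in the same 3 omissions, from 5626 to 3290, 2936 and 3366. In these bulk tumours, fewer cells of a type and less RNA per cell cannot be told apart.

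**Figure D1:**
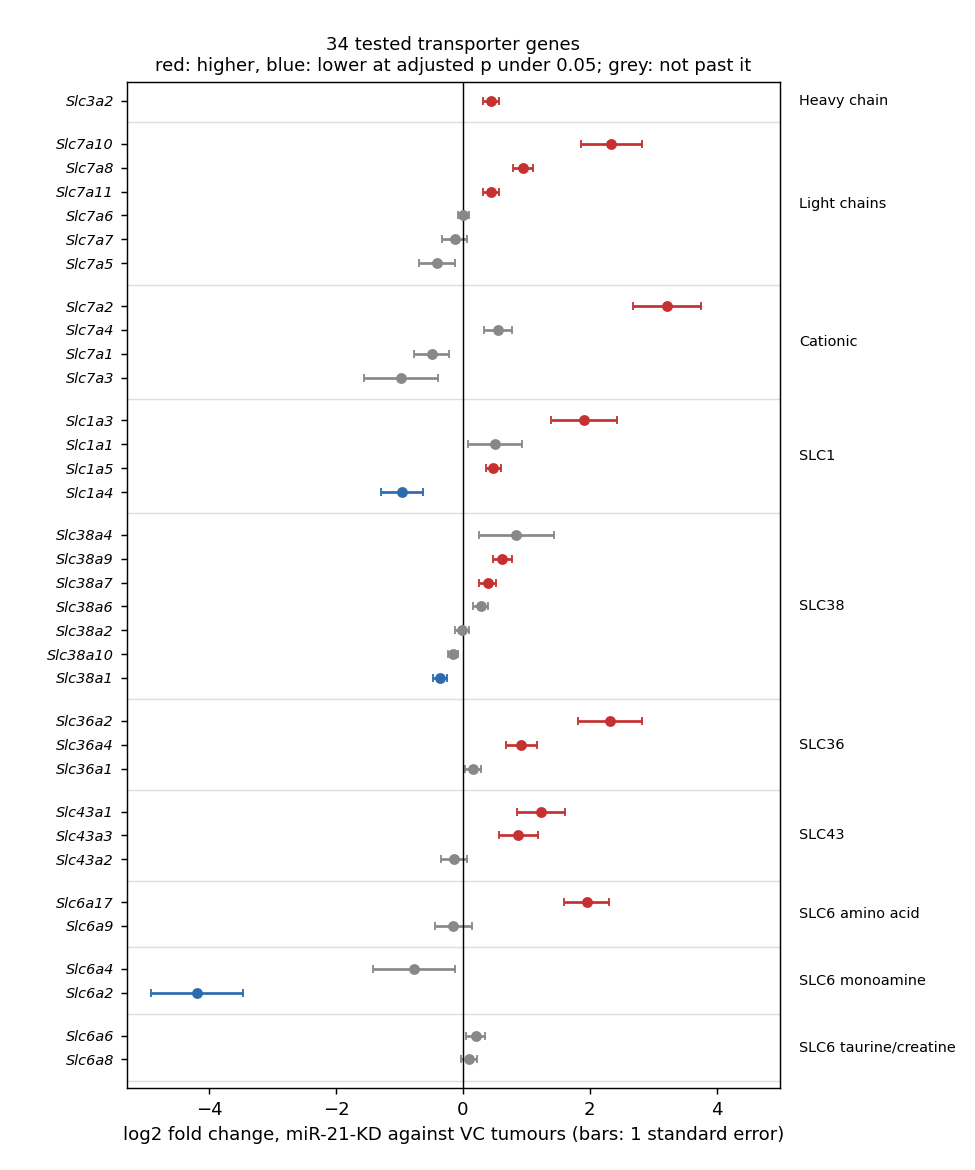
Log2 fold change of miR-21-KD against VC tumours (x axis, bars 1 standard error, n = 4 per group) for the 34 tested transporters, ordered by group (y axis). Red marks the 14 that were higher, blue the 3 that were lower and grey the 17 not past the threshold; Slc7a2 lies farthest to the right at 3.22 and Slc6a2 farthest to the left at -4.19.

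The clearest rise was in the cationic amino acid transporters and rested on 1 gene. Slc7a2 (chr8:40862341-40922070, plus strand), which encodes the arginine carrier CAT2 that activated macrophages use, was at 184, 35.3, 61.3 and 83.9 CPM in VC replicates 1 to 4 and reached 993, 414, 1093 and 889 CPM in miR-21-KD replicates 1 to 4. Every miR-21-KD tumour was above every VC tumour, and the lowest of them, replicate 2, was still above the highest VC tumour. The mean rose from 91.1 ± 65.1 to 848 ± 301 CPM (SD, n = 4), 9.29-fold, with a log2 fold change of 3.22 (SE 0.53, adjusted p = 0.00635 by edgeR). It passed whichever of the 8 tumours was left out, with adjusted p up to 0.0266 and log2 fold changes of 2.94 to 3.82 (the latter without VC replicate 1), and against a fold change of 1.5 (adjusted p = 0.0318). An antisense transcript, Gm26584, overlaps 6.95% of its exon bases, and the strand setting of the counting was not stated.

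Slc7a1, the carrier of the same substrates found in most cells, was at 148 ± 24.7 CPM in VC against 105 ± 43.1 CPM in miR-21-KD tumours (log2 fold change -0.49, adjusted p = 0.182), and passed only without miR-21-KD replicate 2 (adjusted p = 0.0317). The ratio of Slc7a2 to Slc7a1 CPM ran from 0.234 to 1.13 in VC tumours but from 2.61 to 16.5 in miR-21-KD tumours, so its ranges did not overlap. Slc7a3, a further arginine carrier, had a log2 fold change of -0.97 (adjusted p = 0.210) at a mean of 1.74 CPM in VC tumours. VC replicate 4 had 52 counts against 9 to 14 in the other 7 tumours, and without it the log2 fold change was -0.05. Slc7a4, an orphan of this branch, had 0.55 (adjusted p = 0.0788) and passed with DESeq2 (adjusted p = 0.0444) and without VC replicate 2 (adjusted p = 0.0297). Its last member, Slc7a14, had at most 2 counts in a tumour and was not tested.

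Enzymes of arginine metabolism were measured in the same tumours. Nos2, inducible nitric oxide synthase, was at 96.4 to 237 CPM in VC against 337 to 393 CPM in miR-21-KD tumours (log2 fold change 1.02, adjusted p = 0.0159). Odc1, which makes putrescine from ornithine, fell (log2 fold change -0.92, adjusted p = 0.00979), as did Asl, which makes arginine from argininosuccinate (-0.44, adjusted p = 0.0110). Ass1, the enzyme of the step before Asl, rose (0.95, adjusted p = 0.0304), a call that was lost without VC replicate 3 (0.0790) or miR-21-KD replicate 1, 3 or 4 (0.0774, 0.0533 and 0.0629). Slc7a2 and Nos2 each had groups that did not overlap.

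Most of the genes listed as markers of macrophages and monocytes rose in the same tumours. Of 10 such markers, 8 were higher and none lower by edgeR (80.0%, beside 39.1% of all tested genes). Fcgr1 and Lyz2 did not pass (0.11 and 0.63, adjusted p = 0.672 and 0.212). The summed level of the list was 3450 to 5361 CPM in VC against 6403 to 10899 CPM in miR-21-KD tumours. By flow cytometry, which counts cells and not RNA, the paper found fewer infiltrating monocytes in tumours of the miR-21-KD line. Among the miR-21-KD tumours, replicate 2 had the lowest sum and also the lowest Slc7a2, whereas among the VC tumours replicate 4 had the highest sum and replicate 1 the highest Slc7a2. The rise of Slc7a2 was larger than the rise of the marker sum, since the medians of the sums were 4575 and 9771 CPM. The part of these cells in the level of Slc7a2 was not tested.

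The heavy chain rose by less. Slc3a2 (chr19:8706882-8723369, minus strand), the CD98 heavy chain that carries the light chains to the surface, was at 270, 219, 247 and 282 CPM in VC against 330, 297, 394 and 362 CPM in miR-21-KD replicates 1 to 4, with no overlap. The mean was 255 ± 28.0 and 346 ± 41.9 CPM, with a log2 fold change of 0.44 (SE 0.12, adjusted p = 0.0218). The call was lost in 4 of 8 omissions, without VC replicate 2 (adjusted p = 0.0659) or 3 (0.0655) and without miR-21-KD replicate 3 (0.0595) or 4 (0.0591). The other heavy chain, Slc3a1, which works in kidney and gut, had 1 to 4 counts in each tumour and was not tested.

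Of the 10 light chains, 6 were tested, 3 were higher and none was lower. Slc7a8 (chr14:54722215-54781886, minus strand), the neutral amino acid exchanger LAT2, was at 117, 92.6, 90.3 and 93.7 CPM in VC against 232, 138, 208 and 180 CPM in miR-21-KD replicates 1 to 4. The groups did not overlap, and the mean went from 98.4 ± 12.5 to 190 ± 40.2 CPM (log2 fold change 0.95, SE 0.16, adjusted p = 0.00679). The call held in all 8 omissions.

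Slc7a5, which encodes LAT1, the leucine exchanger that growing tumour cells use, overlapped between the groups. It was at 116, 117, 147 and 161 CPM in VC against 56.7, 148, 123 and 79.6 CPM in miR-21-KD replicates 1 to 4 (log2 fold change -0.41, SE 0.28, adjusted p = 0.263). Replicates 1 and 4 of the miR-21-KD tumours were below all VC tumours and replicates 2 and 3 within their range. The ratio of Slc7a8 to Slc7a5 CPM ran from 0.582 to 1.01 in VC tumours but from 0.937 to 4.10 in miR-21-KD tumours, with an overlap at the edge.

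Slc7a10 (chr7:35186095-35201116, plus strand), the exchanger of small neutral amino acids Asc-1 that is also known as a surface protein of white fat cells, was at 2.51, 0.558, 1.26 and 1.23 CPM in VC against 9.13, 3.62, 5.52 and 10.1 CPM in miR-21-KD replicates 1 to 4. The groups did not overlap, at means of 1.39 ± 0.813 and 7.09 ± 3.04 CPM and with a log2 fold change of 2.34 (SE 0.48, adjusted p = 0.00988, and 0.0482 against a fold change of 1.5), and the call held in all 8 omissions. Exons of Lrp3 on the other strand overlap 17.9% of its exon bases. Slc7a11, the cystine and glutamate antiporter xCT that feeds glutathione synthesis, was at 36.1, 25.8, 32.8 and 34.7 CPM in VC against 50.6, 40.6, 44.6 and 40.6 CPM in miR-21-KD replicates 1 to 4, again without overlap. Its means were 32.3 ± 4.58 and 44.1 ± 4.71 CPM. Its log2 fold change was 0.45 (SE 0.13, adjusted p = 0.0250), and the call was lost without VC replicate 2 (adjusted p = 0.0568) or 3 (0.0632) and without miR-21-KD replicate 1 (0.0619) or 3 (0.0589).

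The light chains Slc7a6 and Slc7a7, both exchangers of cationic for neutral amino acids, had log2 fold changes of 0.01 (adjusted p = 0.956) and -0.13 (adjusted p = 0.612). The sign of Slc7a6 turned when scaled by library size alone (-0.02). Slc7a9, the partner of Slc3a1, and Slc7a12 had no count in any tumour, and Slc7a13 and Slc7a15 had at most 4 counts in a tumour.

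Among the SLC1 genes, a glutamate carrier and a glutamine exchanger rose and a serine exchanger fell. Slc1a5 (chr7:16781334-16798274, plus strand), the glutamine exchanger ASCT2, was at 93.8, 76.7, 93.5 and 93.5 CPM in VC against 116, 122, 110 and 150 CPM in miR-21-KD replicates 1 to 4. All miR-21-KD tumours were above all VC tumours, at means of 125 ± 17.8 and 89.4 ± 8.44 CPM, with a log2 fold change of 0.48 (SE 0.12, adjusted p = 0.0156) that passed in all 8 omissions. Slc1a4 (chr11:20302180-20332713, minus strand), the alanine, serine and cysteine exchanger ASCT1, was at 90.4, 95.3, 92.9 and 77.2 CPM in VC against 19.6, 69.2, 56.8 and 36.9 CPM in miR-21-KD replicates 1 to 4. All miR-21-KD tumours were below all VC tumours, at means of 45.7 ± 21.9 and 89.0 ± 8.05 CPM.

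The log2 fold change of Slc1a4 was -0.96 (SE 0.33, adjusted p = 0.0449). It passed in 2 of the 8 omissions, those of miR-21-KD replicates 1 and 2, and the others gave 0.0800, 0.0951, 0.0965 and 0.0535 without VC replicates 1 to 4 and 0.0623 and 0.113 without miR-21-KD replicates 3 and 4. With no filter on low counts it gave 0.0641. The ratio of Slc1a5 to Slc1a4 CPM, both on the same scale, was 0.806 to 1.21 in VC against 1.77 to 5.89 in miR-21-KD tumours, without overlap.

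Slc1a3, the glutamate carrier GLAST of glia that is also found in other tissues, was at 6.19, 1.12, 1.34 and 3.68 CPM in VC against 12.6, 8.10, 10.5 and 15.4 CPM in miR-21-KD replicates 1 to 4. The groups did not overlap, with means of 3.08 ± 2.38 and 11.6 ± 3.12 CPM. The log2 fold change was 1.91 (SE 0.52, adjusted p = 0.0214), or 2.51 without VC replicate 1, and the call was lost without VC replicate 3 (adjusted p = 0.0543) or miR-21-KD replicate 4 (0.0592). Slc1a1, the neuronal and renal glutamate carrier, had 0.50 (adjusted p = 0.371), and 31.9% of its exon bases lie over exons of another gene. Slc1a2, the main glutamate carrier of astrocytes, had 1, 0, 1 and 5 counts in VC against 20, 1, 9 and 10 counts in miR-21-KD tumours, and was not tested. The cerebellar and retinal carriers Slc1a6 and Slc1a7 had at most 10 counts in a tumour.

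**Figure D2:**
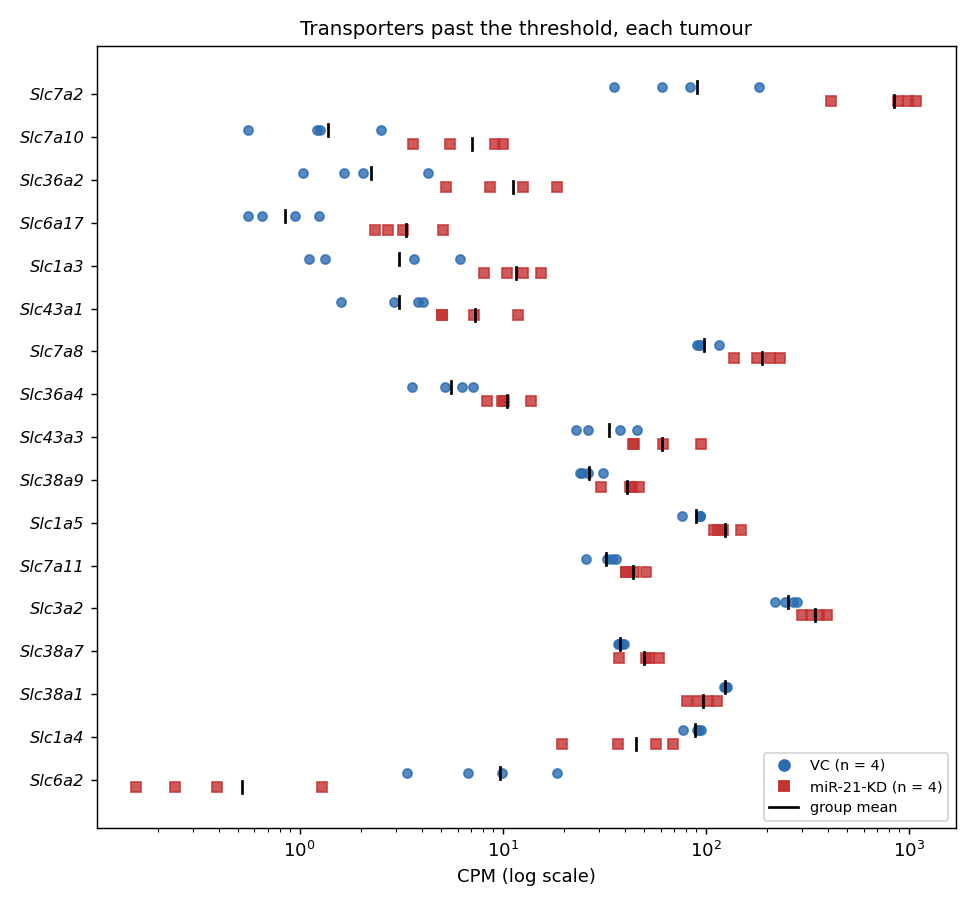
CPM in each tumour (x axis, log scale) of the 17 transporters past the threshold (y axis, ordered by log2 fold change); blue circles are the 4 VC tumours, red squares the 4 miR-21-KD tumours and black lines the group means. The miR-21-KD tumours all lie above the VC tumours for Slc7a2 and all lie below them for Slc6a2 and Slc1a4.

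The 11 SLC38 genes gave 7 tested members, 2 higher and 1 lower, and none moved by more than 2-fold. Slc38a9 (chr13:112656189-112738752, plus strand), the lysosomal arginine sensor that signals to mTORC1, was at 26.5, 24.5, 24.0 and 31.1 CPM in VC against 46.8, 30.7, 42.4 and 43.4 CPM in miR-21-KD replicates 1 to 4. Its groups overlapped by 1 tumour, miR-21-KD replicate 2, the means were 26.5 ± 3.25 and 40.8 ± 7.03 CPM, and its log2 fold change of 0.62 (SE 0.15, adjusted p = 0.0144) passed in all 8 omissions. Slc38a7, a lysosomal glutamine carrier, was at 36.9, 38.7, 37.3 and 39.6 CPM in VC against 59.2, 37.3, 52.4 and 50.7 CPM in miR-21-KD replicates 1 to 4 (means of 38.1 ± 1.25 and 49.9 ± 9.14 CPM), with replicate 2 of the latter inside the VC range.

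The call of Slc38a7 was weak, with a log2 fold change of 0.39 (SE 0.13, adjusted p = 0.0451). It was lost with the replicate number as a block (adjusted p = 0.0591), with limma-voom (0.0590), with no filter on low counts (0.0643) and in 7 of 8 omissions, which gave 0.0857, 0.0949, 0.109 and 0.0647 without VC replicates 1 to 4 and 0.108, 0.104 and 0.0969 without miR-21-KD replicates 1, 3 and 4. Slc38a1, a glutamine and alanine carrier of the plasma membrane, was at 123, 126, 124 and 127 CPM in VC against 81.0, 114, 102 and 92.2 CPM in miR-21-KD replicates 1 to 4, without overlap (means of 125 ± 1.86 and 97.4 ± 14.1 CPM). Its log2 fold change was -0.36 (SE 0.11, adjusted p = 0.0285). It passed in 2 of 8 omissions, and the others gave 0.0521, 0.0688 and 0.0673 without VC replicates 1 to 3 and 0.0536, 0.0537 and 0.0774 without miR-21-KD replicates 1, 3 and 4.

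The remaining SLC38 members did not pass. Slc38a2, the glutamine and alanine carrier that starved cells induce, had -0.01 (adjusted p = 0.958), with a mean of 276 ± 28.1 CPM in VC against 274 ± 27.2 CPM in miR-21-KD tumours. Slc38a10 was at 265 to 295 CPM in VC against 246 to 260 CPM in miR-21-KD tumours, which did not overlap, and had -0.16 (adjusted p = 0.116, and 0.0324 with DESeq2). Slc38a6 had 0.28 (adjusted p = 0.0883) and passed without miR-21-KD replicate 2 (adjusted p = 0.0178), and Slc38a4 had 0.84 (adjusted p = 0.278) and passed with the replicate number as a block (0.86, adjusted p = 0.0371). Slc38a3, the glutamine carrier of liver and astrocytes, had at most 7 counts in a tumour except for 15 in miR-21-KD replicate 4. Slc38a5, Slc38a8 and Slc38a11 had at most 3 counts.

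Among the SLC36 and SLC43 genes, 4 of 6 tested members rose. Slc36a2 (chr11:55158468-55185099, minus strand), a proton-coupled carrier of glycine, alanine and proline that is also a surface protein of fat cells, was at 4.28, 1.04, 1.66 and 2.04 CPM in VC against 12.6, 5.27, 8.68 and 18.6 CPM in miR-21-KD replicates 1 to 4. The groups did not overlap, with means of 2.25 ± 1.41 and 11.3 ± 5.74 CPM, and its log2 fold change was 2.32 (SE 0.51, adjusted p = 0.0118, and 0.0566 against a fold change of 1.5), held in all 8 omissions. Slc36a4, a high-affinity carrier of proline and tryptophan, was at 7.15, 6.30, 5.20 and 3.60 CPM in VC against 13.7, 9.90, 10.1 and 8.38 CPM in miR-21-KD replicates 1 to 4. These groups too stood apart, at means of 5.56 ± 1.54 and 10.5 ± 2.27 CPM, with a log2 fold change of 0.92 (SE 0.25, adjusted p = 0.0205) that was lost without VC replicate 3 (adjusted p = 0.0599) or miR-21-KD replicate 1 (0.0531). Slc36a1, the lysosomal member, had 0.16 (adjusted p = 0.309), and Slc36a3 had at most 10 counts in a tumour.

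Slc43a1, the branched-chain facilitator LAT3, was at 4.06, 1.60, 2.92 and 3.84 CPM in VC against 11.96, 5.03, 5.03 and 7.20 CPM in miR-21-KD replicates 1 to 4. All of the latter were higher, with means of 3.10 ± 1.12 and 7.31 ± 3.27 CPM. The log2 fold change was 1.23 (SE 0.38, adjusted p = 0.0325), and the call was lost without VC replicate 2 (adjusted p = 0.0714) or 3 (0.0832) and without miR-21-KD replicate 1 (0.0810) or 4 (0.0705). Slc43a3, which carries purine nucleobases and no amino acid, was at 37.8, 26.2, 23.1 and 46.2 CPM in VC against 94.9, 44.3, 43.9 and 61.4 CPM in miR-21-KD replicates 1 to 4, with an overlap (means of 33.3 ± 10.6 and 61.1 ± 23.9 CPM). Its log2 fold change was 0.88 (SE 0.30, adjusted p = 0.0481). Scaled by library size alone it gave 0.0510 and with no filter on low counts 0.0665, and it passed in 2 of 8 omissions, with 0.0652, 0.118 and 0.120 without VC replicates 1 to 3 and 0.116, 0.0513 and 0.0955 without miR-21-KD replicates 1, 3 and 4. Slc43a2, LAT4, had -0.14 (adjusted p = 0.597) at 173 ± 40.5 and 157 ± 36.9 CPM.

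The largest change of any tested transporter was a fall in the noradrenaline transporter. Slc6a2 (chr8:92960470-93001667, plus strand), which takes noradrenaline back into sympathetic nerve endings, had 46, 232, 86 and 122 counts in VC replicates 1 to 4 and 16, 5, 3 and 2 counts in miR-21-KD replicates 1 to 4. That is 3.39, 18.5, 6.78 and 9.97 CPM against 1.29, 0.393, 0.243 and 0.157 CPM, so that the 2 lowest miR-21-KD tumours were at or under the limit of 3 counts. The means were 9.66 ± 6.48 and 0.522 ± 0.524 CPM, and the groups did not overlap. The fitted log2 fold change was -4.19 (SE 0.72, adjusted p = 0.00679, and 0.0321 against a fold change of 1.5), or 18.3-fold lower. The call held in all 8 omissions, where the log2 fold change ranged from -5.14 (without miR-21-KD replicate 1) to -3.67.

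Of the other SLC6 monoamine carriers, 1 was tested and it did not pass. Slc6a4, the serotonin transporter, was at 7.08, 2.95, 11.8 and 2.13 CPM in VC against 1.62, 7.70, 2.35 and 2.43 CPM in miR-21-KD replicates 1 to 4, with a log2 fold change of -0.76 (SE 0.65, adjusted p = 0.368) and groups that overlapped. Without miR-21-KD replicate 2 it was -1.49 (adjusted p = 0.0751). Slc6a3, the dopamine transporter, had at most 3 counts in a tumour. Outside SLC6, the vesicle carrier Slc18a2 had 0.19 (adjusted p = 0.379) and Slc22a3, an organic cation carrier that takes up monoamines, rose (1.51, adjusted p = 0.0294). The call of Slc22a3 was lost with the replicate block (0.0522) and without VC replicate 2, 3 or 4 or miR-21-KD replicate 3 or 4 (adjusted p of 0.0566 to 0.0831). Th, the enzyme that commits tyrosine to catecholamines, had no count in any tumour. Of the 5 neuron markers 2 were tested, Tubb3, which was higher (1.56, adjusted p = 0.0126), and Stmn2 (1.15, adjusted p = 0.208). Snap25 had no count, Syt1 and Rbfox3 had at most 6 in a tumour, and the sum of the list was 1.12 to 4.82 CPM in VC against 4.06 to 6.57 CPM in miR-21-KD tumours. Maoa, which breaks down noradrenaline, fell (log2 fold change -0.67, adjusted p = 0.00756), and Maob rose (1.15, adjusted p = 0.0311). The call of Maob was lost without VC replicate 2, 3 or 4 or miR-21-KD replicate 1, 3 or 4 (adjusted p of 0.0505 to 0.0857). The receptors Adrb3, of fat cells, and Adra2a rose (2.97 and 0.87, adjusted p = 0.0113 and 0.0120). Of 19 genes of monoamine synthesis, breakdown and reception, 10 were tested, 5 were higher and 1 lower (60.0%, beside 39.1% of all tested genes).

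Of the 12 amino acid carriers of SLC6, only 2 were tested. Slc6a17 (chr3:107467548-107518018, minus strand), a neutral amino acid carrier of synaptic vesicles, was at 1.25, 0.558, 0.946 and 0.654 CPM in VC against 5.09, 3.22, 2.35 and 2.74 CPM in miR-21-KD replicates 1 to 4. The groups did not overlap, with means of 0.853 ± 0.314 and 3.35 ± 1.21 CPM, and its log2 fold change was 1.96 (SE 0.36, adjusted p = 0.00728, and 0.0419 against a fold change of 1.5), held in all 8 omissions. Slc6a9, the glycine transporter GlyT1, had -0.15 (adjusted p = 0.703), and exons of Ccdc24 on the other strand lie over 27.8% of its exon bases. Slc6a14, a broad carrier of neutral and cationic amino acids found in epithelia, was left out by the filter with 0, 0, 2 and 1 counts in VC against 19, 0, 7 and 9 counts in miR-21-KD tumours. Slc6a5 and Slc6a21 had no count, and Slc6a7, Slc6a15, Slc6a16, Slc6a18, Slc6a19, Slc6a20a and Slc6a20b had at most 6 in a tumour.

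The carriers of taurine, creatine, GABA and betaine gave 2 tested genes of 6 and no call. Slc6a6, the taurine carrier, was at 206 ± 20.3 CPM in VC against 237 ± 50.2 CPM in miR-21-KD tumours (log2 fold change 0.20, adjusted p = 0.305), and Slc6a8, the creatine carrier, at 82.3 ± 8.35 and 88.3 ± 13.5 CPM (0.10, adjusted p = 0.551). Neither had an unadjusted p under 0.05, and DESeq2 called 0 of these 2. Slc6a12, the betaine and GABA carrier, had 1, 1, 1 and 0 counts in VC against 6, 2, 3 and 8 in miR-21-KD tumours, without overlap, and passed with no filter on low counts (adjusted p = 0.0335). Slc6a11 and Slc6a13, carriers of GABA, had at most 14 counts in a tumour.

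In all, 29 transporters were not tested, of which 4 had no count in any tumour and 25 had at least 1, the highest being 20 in 1 tumour. With no filter, 25 of them could be fitted, and of these Slc6a12 passed and the other 24 did not. The opposite-strand transcript Slc7a6os, which lies beside Slc7a6 on chromosome 8 and encodes a nuclear protein and no carrier, was at 23.8, 20.4, 22.9 and 22.0 CPM in VC against 30.1, 28.8, 26.4 and 30.4 CPM in miR-21-KD replicates 1 to 4. Its groups did not overlap (means of 22.3 ± 1.44 and 28.9 ± 1.84 CPM, log2 fold change 0.38, SE 0.10, adjusted p = 0.0171). Its call was lost without VC replicate 2 (adjusted p = 0.0573) or miR-21-KD replicate 4 (0.0506). Slc36a1os and Slc6a19os had no count.

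The order of the transporters by level changed for several genes. Levels of different genes were set side by side in CPM per kb of exon, with all annotated exons of a gene joined. Since the annotation used in counting was not stated, these places are approximate. On this scale Slc3a2 stood first in both groups, at 72.1 in VC against 98.0 in miR-21-KD tumours. In VC tumours it was followed by Slc38a10 (44.0 CPM per kb), Slc7a5 (36.4) and Slc38a2 (31.2), and Slc7a2 was in place 15 with 9.98. In miR-21-KD tumours Slc7a2 was in place 2 with 92.8 CPM per kb, followed by Slc38a10 (39.4), Slc7a8 (37.9) and Slc38a2 (31.1), and Slc7a5 had 27.4. Slc1a4 went from 22.7 CPM per kb in place 6 to 11.6 in place 15, Slc7a5 from place 3 to 8, and Slc7a8 from place 8 to 4. Slc1a5 went from 21.4 to 29.9 CPM per kb. Slc7a1 and Slc7a6, in places 12 and 14 in VC tumours, left the first 15, and Slc43a3 and Slc38a7 entered them in places 11 and 13.

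**Figure D3:**
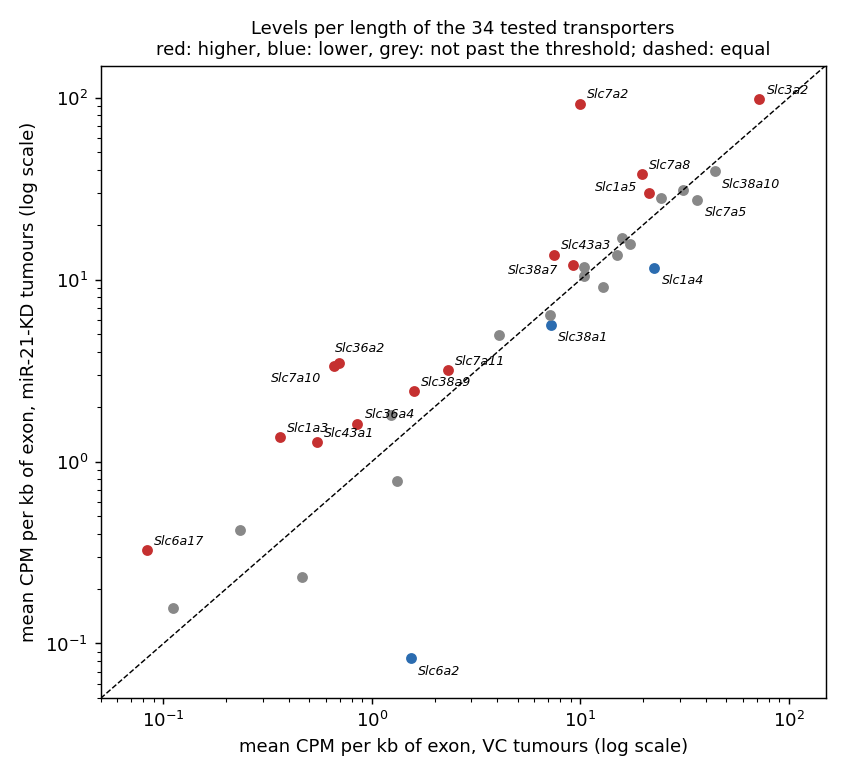
Mean CPM per kb of exon in VC (x axis) and miR-21-KD tumours (y axis), both on log scales, for the 34 tested transporters; the dashed line marks equal levels, red marks higher, blue lower and grey not past the threshold. Slc7a2 lies far above the line at 9.98 and 92.8 CPM per kb, and Slc6a2 far below it.

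Summed over the 63 transporters, the level was 2374 to 2554 CPM in VC against 2835 to 3691 CPM in miR-21-KD tumours. Without Slc7a2 the sums were 2312 to 2389 and 2420 to 2610 CPM, so that most of the difference in the sum was that gene. Slc7a2 made up 1.45% to 7.21% of the sum in VC against 14.6% to 29.6% in miR-21-KD tumours. Among the 14 transporters that were higher, miR-21-KD replicate 2 was the lowest of its group in 9 and replicate 1 the highest in 8, and VC replicate 1 was the highest of its group in 10 and replicate 2 the lowest in 9.

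Slc36a2 and Slc1a3, and less closely Slc7a10, stood in the order of the fat cell markers from tumour to tumour. All 6 adipocyte markers were higher in miR-21-KD tumours, beside 19.6% of all tested genes. Their sum was 328, 88.9, 120 and 173 CPM in VC against 727, 440, 634 and 1145 CPM in miR-21-KD replicates 1 to 4. The 8 tumours stood in the same order by this sum and by Slc36a2, and so they did by Slc1a3, 2 of 34 tested transporters, beside 0.424% of all tested genes. Within the groups, 4 of 34 stood in the order of this sum among the miR-21-KD tumours (Slc7a10, Slc1a3, Slc36a2 and Slc38a4, 11.8% beside 5.97% of all tested genes) and 6 among the VC tumours (Slc7a2, Slc7a11, Slc7a6, Slc1a3, Slc36a2 and Slc43a1, 17.6% beside 5.73%). By Slc7a10 the order was the same among the 4 miR-21-KD tumours, and among the VC tumours replicates 3 and 4 changed places at 1.26 and 1.23 CPM. The tumours share their libraries and the sum and the carriers were read from the same counts, so these orders are a description. The part of fat tissue in the levels of these genes was not tested.

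**Figure D4:**
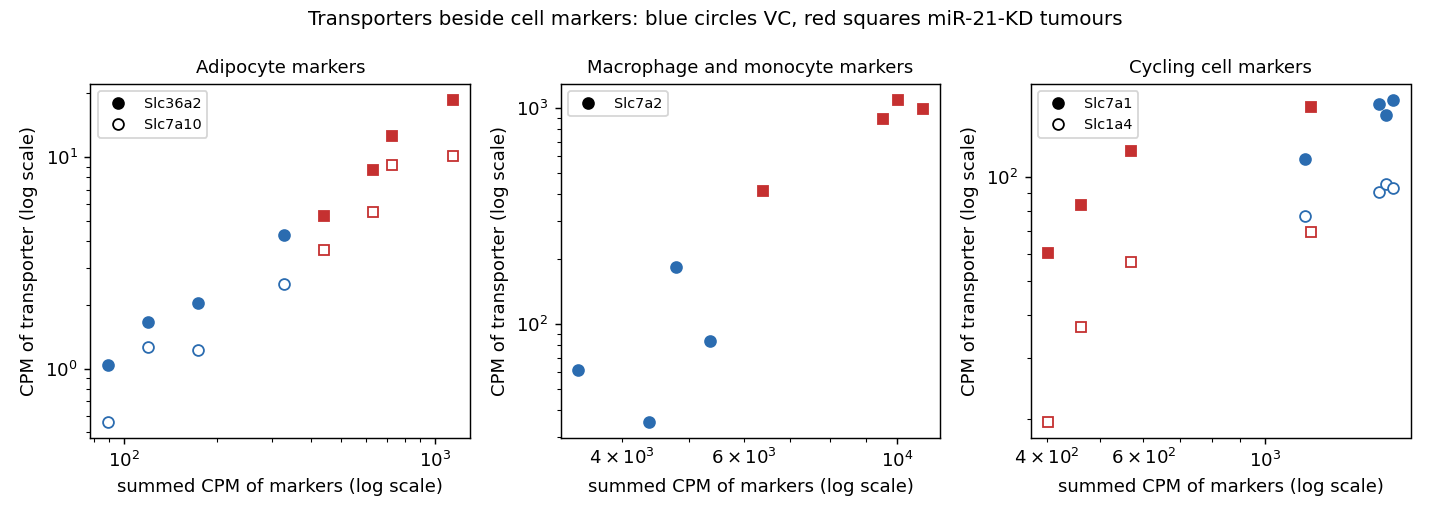
CPM of transporters (y axes, log scale) against the summed CPM of markers of fat cells, of macrophages and monocytes and of cycling cells (x axes, log scale) in the 8 tumours, blue circles VC and red squares miR-21-KD. Slc36a2 and Slc7a10 rise with the fat cell sum in both groups, while Slc1a4 and Slc7a1 in the miR-21-KD tumours stand in the order of the cycling sum, from 402 to 1212 CPM.

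Other cell markers also moved, where 19.6% of all tested genes were higher and 19.5% lower. All 5 markers of cycling cells were lower, with sums of 1178 to 1708 CPM in VC against 402 to 1212 CPM in miR-21-KD tumours, and miR-21-KD replicate 2, the highest, was within the VC range. In the miR-21-KD tumours, Slc1a4, Slc38a1, Slc7a1, Slc7a5 and Slc6a9 stood in the same order as this sum, 5 of 34 transporters or 14.7%, which is near the 14.6% of all tested genes in that order. Among the VC tumours and over all 8, 0 of 34 stood in the order of the cycling sum (5.39% and 0.487% of all tested genes). In the order of the macrophage sum were 5 of 34 among the miR-21-KD tumours (Slc7a7, Slc7a8, Slc38a7, Slc6a6 and Slc6a8, 14.7% beside 5.41% of all tested genes), 3 among the VC tumours (8.82% beside 4.94%) and 0 over all 8 (beside 0.16%). Fibroblast markers were higher in 4 of 6 (sums 1652 to 3835 and 5601 to 11905 CPM) and T cell markers in 6 of 8 (44.5 to 170 and 154 to 338 CPM). Of 8 epithelial markers, 5 were higher and Krt18 was lower (sums 1291 to 2224 and 1047 to 1958 CPM). Those 5 had VC means from 7.10 CPM (Krt14) to 43.2 CPM (Cdh1). The more abundant Krt18 went from a mean of 1022 to 460 CPM and Krt8, not past the threshold, from 808 to 439 CPM. Whether these markers came from tumour cells or host epithelium was not tested. Leukocyte markers were higher in 3 of 4 and endothelial markers in 2 of 5. Of the tested muscle markers 1 was higher and 1 lower, and of 3 tested Schwann cell markers 1 was higher, at sums of at most 34.7 CPM. Of 5 tested neutrophil markers 0 passed by edgeR, 2 had an unadjusted p under 0.05 and 2 passed with DESeq2 (sums 274 to 780 and 366 to 646 CPM). With the replicate block Csf3r and Cxcr2 of these passed as higher (adjusted p = 0.00326 and 0.00744). So did Trp63, Trac and Pdgfrb of the other marker lists (0.0314, 0.0388 and 0.0346), and Krt8 passed as lower (0.0413). The part of each of these cells in the transporter levels was not tested.

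Other genes of amino acid handling showed both directions. Of 45 enzymes of amino acid synthesis and breakdown, 43 were tested, 19 were higher and 5 lower. That was 55.8% past the threshold, beside 39.1% of all tested genes, at a median log2 fold change of 0.36. The 3 smallest adjusted p of those higher were Glul, glutamine synthetase (1.90, adjusted p = 0.00523), Gpt2, mitochondrial alanine aminotransferase (1.62, adjusted p = 0.00598), and Gatm, which starts creatine synthesis from arginine (1.63, adjusted p = 0.00611). Got2, mitochondrial aspartate aminotransferase, was among those lower (-0.43, adjusted p = 0.0110). Of 30 amino acid and transmitter carriers of other families, 19 were tested, 7 were higher and 4 lower. That was 57.9%, beside 39.1% of all tested genes, at a median of 0.19. Those higher included Slc15a3, a lysosomal peptide carrier (0.70, adjusted p = 0.00906), and Slc66a1, which exports cationic amino acids from the lysosome (0.75, adjusted p = 0.0113). Slc25a15, the mitochondrial ornithine carrier, was higher too (0.74, adjusted p = 0.0115). Lower were Slc25a12, the mitochondrial aspartate and glutamate carrier (-0.41, adjusted p = 0.0109), Sfxn1, the mitochondrial serine carrier (-0.59, adjusted p = 0.0154), and its relative Sfxn3 (-0.31, adjusted p = 0.0422). The call of Sfxn3 was lost without VC replicate 1, 2 or 3 or miR-21-KD replicate 1, 2 or 4 (adjusted p of 0.0522 to 0.111).

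Of 11 partner and trafficking proteins, 8 were tested, 1 was higher and 2 lower. That was 37.5%, near the 39.1% of all tested genes, at a median log2 fold change of -0.26. Anpep, aminopeptidase N, rose (1.69, adjusted p = 0.00673), and Arl6ip1 and the ubiquitin ligase Nedd4 fell (-0.42 and -0.65, adjusted p = 0.00855 and 0.0106). Of 36 genes of amino acid sensing upstream of mTORC1, 35 were tested, 5 were higher and 7 lower. That was 34.3%, near the 39.1% of all tested genes, at a median log2 fold change of -0.02. Flcn, a regulator of the Rag GTPases, Sesn2, the leucine sensor, and Rragd, a Rag GTPase, rose (0.52, 0.58 and 1.22, adjusted p = 0.00977, 0.0166 and 0.0176). Sesn3, a relative of Sesn2, Tsc1, a brake on mTORC1, and Rheb, its activator, fell (-1.55, -0.52 and -0.34, adjusted p = 0.00501, 0.00672 and 0.0203). Of 17 genes listed for the response to amino acid starvation and related stress, 7 were higher and 2 lower. That was 52.9%, beside 39.1% of all tested genes, at a median log2 fold change of 0.40. Those higher included Vldlr at 1.84 (adjusted p = 0.0111), Atf3 at 0.75 (0.0135) and Eif2ak3, the kinase PERK, at 0.48 (0.0180). Keap1, the inhibitor of NRF2, at -0.46 (0.0153) and Nfe2l2, which encodes NRF2, at -0.26 (0.0223) were lower. Eif2ak4, Ddit3 and Chac1 did not pass (-0.07, 0.20 and 0.40, adjusted p = 0.664, 0.497 and 0.438). Trib3 and Nupr1, both higher, lost their calls with the replicate block (0.0519 and 0.0660). The calls of Sesn2 and Rragd were lost without VC replicate 3 (adjusted p = 0.0545 and 0.0538), that of Rheb without VC replicate 2 or 3 (0.0589 and 0.0508), that of Eif2ak3 without VC replicate 2 or 3 (0.0510 and 0.0550) and that of Nfe2l2 without VC replicate 1, 2 or 3 or miR-21-KD replicate 1, 3 or 4 (0.0503 to 0.0657). Atf4, the factor that binds amino acid response elements, had 0.37 (adjusted p = 0.0955).

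The promoters of the members were searched for 2 short motifs, since several carriers are known targets of ATF4 and NRF2. RefSeq windows from 250 bases before to 50 bases after a gene's start (GRCm38.p6) were held for 48 members, in 69 windows. The core TGATGNAA of the amino acid response element was looked for on both strands and was in 5 member windows of 4 members, Slc7a11, Slc1a4, Slc7a7 and Slc6a21, and in 3.97% of all 32851 windows. The core TGACNNNGC of the antioxidant response element was in 12 member windows of 10 members and in 12.4% of all windows. Of the 11 members with a window among those that were higher, 1 held the first motif (Slc7a11) and 1 the second (Slc43a1). The stretches of Slc7a11 and Slc1a4 are shown because both hold the same core while their levels moved in opposite directions, with the core in capitals. The first lies at a gene start inside the annotated span of Slc7a11, at chr3:50443653-50443682, and the second at the start of Slc1a4, at chr11:20332710-20332739, both on the minus strand.
Slc7a11: ggcTGATGCAAacctggagaatTTGCATCA
Slc1a4: agcctccagcgtgcctcctgcgTTGCATCA
In the stretch of Slc7a11 the core was found on the strand of the gene, at -66 from its first base, and again on the other strand, at -47, while in that of Slc1a4 it was found on the other strand, at -4. A match of letters is a description of these windows and no measure of binding.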

How the data were processed

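Whole tumours were sequenced from total RNA (4 VC, 4 miR-21-KD, grouped by their labels). The authors deposited raw counts per Entrez identifier without normalization. The submitters' processing notes name Subread, featureCounts, edgeR, limma and the build mm10, whereas versions, annotation and the strand setting are not given in the sources used here, so reads of overlapping genes on opposite strands may be counted together. Of 27179 identifiers, 25275 matched a symbol of RefSeq GRCm38.p6, the same build. Exon lengths came from GENCODE M21. Depth is given with the data, and tumours of 1 group always differed by more than sampling noise (chi-square per degree of freedom at least 13.1). The labels name separate tumours, and p-values measure the spread between them.

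In R 4.3.3, edgeR 4.0.16 was used with filterByExpr (a minimum count of 10 and a minimum total of 15), which kept 14382 genes holding 99.9% of the counts, with TMM scaling and the robust quasi-likelihood test, at an adjusted p of 0.05 over all tested genes. CPM were computed on the TMM-scaled library size. Standard errors came from each estimate and its F statistic. The script was tested on simulated data. The members were fixed by their symbols and were named in the text whatever their values, except for 1 untested member that is not reported here, like some genes of other lists. Of the other lists, those with the 3 smallest adjusted p in each direction could be named, and Nos2, Atf4 and others beyond these were chosen after their values were seen. The members, the lists and the tests were all chosen with earlier results of these data known. Slc6a21 was placed in its group after the data were seen. Alternatives were library size alone, upper-quartile scaling, DESeq2 1.42.0, limma-voom (limma 3.58.1), no filter, a minimum of 10 counts in every tumour, the replicate number as a block, a test above 1.5-fold and the omission of each tumour. Tumours of the same replicate number had correlations above 0.1 in all 4 pairs (mean 0.311), beside a mean of -0.105 over the 12 other combinations. Values were centred within each group first, so the 2 means depend on each other. Some other combinations were as high, with 0.393 for VC replicate 3 and miR-21-KD replicate 2 and 0.334 for VC replicate 4 and miR-21-KD replicate 1. These correlations therefore cannot decide whether the tumours were paired. The labels give replicate numbers and state no pairing. The main fit was unpaired, and the number served as a block only as an alternative.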

Additional observations from a re-analysis of the deposited data

Results flagged for a closer look

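In 4 of 70 groups of values checked, 1 tumour stood far from the other 3 of its group, where chance gives about 1 group in 20. For Slc7a4 VC replicate 2 was the highest of its group at 7.42 CPM, and without it the gene passed the threshold (adjusted p = 0.0297 by edgeR, log2 fold change 0.78). For Slc7a6 VC replicate 1 was the highest at 50.3 CPM. For Slc7a8 VC replicate 1 was the highest of the VC tumours at 117 CPM, below the 138 CPM of the lowest miR-21-KD tumour. For Slc1a5 VC replicate 2 was the lowest at 76.7 CPM, and the gene passed without it.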

How the results depend on the processing

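Of the members, 18 passed the threshold (15 higher, 3 lower), and 15 to 20 did so with library size alone, upper-quartile scaling, DESeq2, limma-voom, no filter, a minimum of 10 counts in every tumour and the replicate block. Slc6a2, Slc7a10 and Slc6a17 were not tested where every tumour needed 10 counts. Against a fold change of 1.5 the counts were 4 in all, 3 higher and 1 lower, and 9 of the 65 genes past the threshold in the lists of other amino acid genes. Leaving out 1 tumour gave 9 to 20 members, 8 to 16 higher and 1 to 4 lower, and 36 to 67 genes of those lists. Over all tested genes the calls went from 5626 to 542 against a fold change of 1.5. With the replicate block 18 members passed, Slc38a7 losing and Slc38a4 gaining its call, and the block changed no other call of a member. The log2 fold change of Slc7a6 (0.01) turned to -0.018 with library size alone and to -0.026 with no filter, and ranged from -0.034 to 0.040 when 1 tumour was left out. That of Slc38a2 (-0.01) turned to 0.033 with upper-quartile scaling, 0.0093 with DESeq2 and 0.042 where every tumour needed 10 counts, and ranged from -0.067 to 0.048 over the omissions. The omissions gave -0.31 to 0.014 for Slc43a2 and -0.38 to 0.066 for Slc6a9. None of these 4 genes passed the threshold in any setting tried, and the cause was not tested. The median over every tested gene ranged from -0.04 with library size alone to 0.03 with upper-quartile scaling. The 29 transporters left out by the filter had at most 20 counts in a tumour.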
